A study of Mus musculus with 12 samples.

Results

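The ERBB receptors and their ligands were examined in mouse liver cells sorted by the brightness of a Sox9EGFP reporter. The set comprised 9 of the 54227 genes in the deposited table, matched by symbol: the receptors Egfr, Erbb2, Erbb3 and Erbb4, the ligands Hbegf, Areg, Btc and Nrg1, and the feedback inhibitor Errfi1. The members were chosen by measured values: they were selected on the normalised counts of Erbb4, which separated the low from the sub population without overlap, so every low against sub value below is a description and carries no test. Livers came from C57Bl/6 mice with a Sox9EGFP transgene, in which EGFP is a reporter for Sox9, a transcription factor of the bile duct lineage. The animals were fasted for 16 h, and all 4 populations share the transgene, the fast and the liver digestion. Fluorescence gates gave cells without EGFP (neg), a sublow gate (sub), a low gate and a high gate, with 12000 cells per population and 3 libraries each. Age, sex and whether the 3 libraries of a gate came from different animals are not given in the labels, so p-values measure only the spread between these libraries, which may be technical. The gates are set on a reporter and not on a cell type, so a population can mix cell types.

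ERBB receptors are receptor tyrosine kinases of the cell surface that signal as dimers, mainly through the RAS-MAPK and PI3K-AKT routes. EGFR binds EGF-type ligands such as HB-EGF, amphiregulin and betacellulin; ERBB3 binds neuregulins but has a weak kinase and depends on its partners; ERBB4 binds neuregulins and also HB-EGF and betacellulin; and ERBB2 has no known ligand of its own and serves as a shared partner. In liver, EGFR and ERBB3 are best known from hepatocytes and ERBB signalling from the regenerative response, while Errfi1, also called Mig6, is switched on by EGFR signalling and shuts the receptor down.

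Values are normalised counts, which are reads divided by 1 factor per library. Libraries held 8775387 to 15535588 reads, and 1 read was worth 0.691 to 1.22 normalised counts. The libraries were patchy: of the genes with a mean of at least 100 in a population, 41% in neg and 42.5% in sub, and 33.6% in low and 25.1% in high were at 0 in at least 1 of its 3 libraries. Single zeros of a member are therefore common in these data and the median standard error of a log2 fold change was 2.35 over the 16128 genes tested. Of the 9 members, 8 passed the filter of a mean of at least 10 over all libraries, and Areg did not.

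The populations differed in their cell type markers. The summed normalised count of 10 biliary markers was 21.2 to 412 in neg and 19770 to 36031 in sub, and 66815 to 91812 in low and 62648 to 68507 in high. Epcam, Spp1, Cftr, Pkhd1 and Cldn4 were at 0 in all neg libraries. The sum of 10 endothelial markers was 108715 to 152519 in neg and 34967 to 43188 in sub, against 760 to 2295 in low and 555 to 899 in high. The sum of 10 stellate or mesenchymal markers was 17843 to 33051 in neg and 24945 to 33385 in sub, against 628 to 2514 in low and 487 to 1935 in high. Hepatocyte markers summed to 395 to 793 in neg and 4968 to 8109 in sub, and 14730 to 22230 in low and 18578 to 22577 in high. The sub libraries thus held duct, endothelial and mesenchymal RNA together, and the neg libraries were not hepatocyte-rich. Their part in the differences of the members was not tested, and fewer cells of a type and less RNA per cell cannot be told apart in such bulk libraries.

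**Figure D1:**
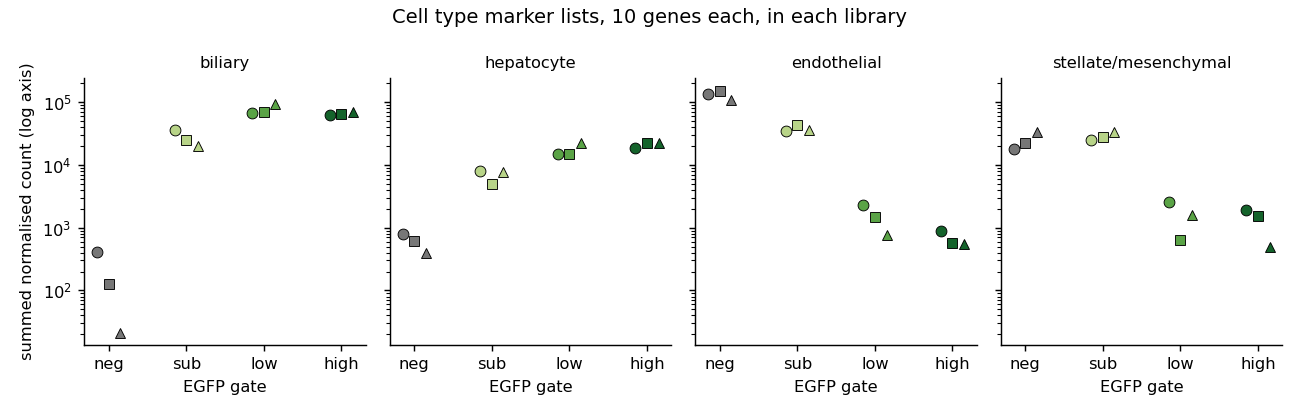
Summed normalised count of 10 biliary, hepatocyte, endothelial and stellate or mesenchymal marker genes (log axis) in each library by EGFP gate; each symbol is 1 library and its shape the replicate number. Biliary sums lie at 412 or below in neg and at 19770 or above elsewhere, while endothelial sums lie at 2295 or below in low and high.

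Among the receptors, Erbb4, on which the set was chosen, was near 0 in neg and sub and high in the brighter gates. It occupies chr1:68032186-69108059, minus strand (GRCm38, GENCODE M21). It was at 0 in the 3 neg libraries and at 0, 0 and 8.0 normalised counts in the 3 sub libraries. The 8.0 in sub 3 would be 8 reads at the step of 0.997 taken for that library. In low it stood at 1973, 2081 and 1849, and in high at 954, 1566 and 1702 normalised counts. The gene was thus at or near the limit of detection in 6 libraries and near or above 1000 in the other 6, with nothing between.

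The mean of Erbb4 was 1968 ± 116 in low and 1407 ± 399 in high, beside 2.66 ± 4.61 in sub (SD, n = 3). High against neg compares none of the libraries that chose the gene, although their spread enters the fit of all 12 libraries. There the log2 fold change on the log2(normalised count + 1) scale was 10.42 ± 2.12 (SE; 95% interval 5.98 to 14.85; limma adjusted p = 0.00597), and the ratio of means was at least 384, taking 3 reads per library as the limit that a count of 0 allows. Erbb4 was higher in 3 of 3 high libraries than in any neg library. It passed the threshold in all 23 alternatives, with adjusted p between 7.25e-13 and 0.0271. The highest, 0.0271, came from the fit of only the 6 neg and high libraries, in which the choosing libraries play no part in the gene's own spread.

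Low stood at least 536-fold above neg, as a description. The sub mean lay under the limit of 3 reads, and set against that limit low was 573-fold and high 409.7-fold above sub. These are no lower bounds, because sub 3 itself lay above the limit. Without sub 1 or sub 2 the ratios were 493 and 353. Every low library lay above every high library, by 1.40-fold in the means.

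The start region of Erbb4 is shown because the set was chosen on this gene, and those of Areg and Errfi1 because of a motif they share. Windows run from 250 bases before to 50 bases after the start site and come from RefSeq on GRCm38.p6. Those of 6 members were searched, and Errfi1 had 2 starts. A search on both strands, with 5 motifs picked after the sequences had been seen, is given beside them. The cAMP response element (CRE) was searched as TGACGTCA, and the element of AP-1 factors was searched as TGANTCA. The letters taken for TEAD factors were GGAATG. Those taken for SOX factors were AACAAT. The TATA box, which lies near the start site of some genes, was searched as TATAAA. The Erbb4 window, chr1:69108010-69108309 read on the minus strand, holds the SOX letters in reverse complement 73 bases before the start, marked in capitals:

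Erbb4: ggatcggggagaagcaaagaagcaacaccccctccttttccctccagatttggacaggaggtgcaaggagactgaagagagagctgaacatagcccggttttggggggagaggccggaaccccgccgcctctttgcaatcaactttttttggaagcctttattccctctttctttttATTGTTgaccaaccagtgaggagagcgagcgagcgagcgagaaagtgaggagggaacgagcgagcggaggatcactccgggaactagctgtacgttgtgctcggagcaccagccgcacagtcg

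Of 32851 windows of the same length, 10.7% hold the SOX letters, so the match is common. The Areg window, chr5:91139349-91139648 on the plus strand, and the downstream Errfi1 start, chr4:150854820-150855119 on the plus strand, both hold the full CRE and a TATA box, in capitals in that order:

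Areg: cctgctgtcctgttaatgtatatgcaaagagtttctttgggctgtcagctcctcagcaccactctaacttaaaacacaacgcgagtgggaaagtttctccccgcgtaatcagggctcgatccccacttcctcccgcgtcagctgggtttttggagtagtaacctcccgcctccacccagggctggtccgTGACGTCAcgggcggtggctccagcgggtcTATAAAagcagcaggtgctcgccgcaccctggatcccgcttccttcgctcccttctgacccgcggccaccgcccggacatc

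Errfi1: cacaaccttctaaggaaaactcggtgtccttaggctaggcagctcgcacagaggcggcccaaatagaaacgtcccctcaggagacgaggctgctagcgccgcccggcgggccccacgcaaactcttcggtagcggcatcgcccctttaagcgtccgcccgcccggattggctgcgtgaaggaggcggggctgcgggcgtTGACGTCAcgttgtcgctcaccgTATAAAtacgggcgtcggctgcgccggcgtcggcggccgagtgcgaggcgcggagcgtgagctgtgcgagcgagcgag

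The CRE lies 61 bases before the start in Areg and 51 bases before it in Errfi1, and the TATA letters lie 31 and 28 bases before it. The CRE letters occur in 1.79% and the TATA letters in 13.6% of all windows. The Erbb2 window and the upstream Errfi1 window hold the TEAD letters, as do 14.7% of all windows. None of the 7 member windows searched holds the AP-1 letters, found in 7.81% of all. These matches describe letters and carry no statement on binding. Areg and Errfi1 differed in these cells: Areg gave no read in any of the 12 libraries, while Errfi1 was among the highest members.

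Erbb3 rose in every EGFP-positive population. It occupies chr10:128567523-128589652, minus strand. Its values were 67.0, 0 and 0 in neg and 385, 590 and 469.8 in sub, and 2937, 1518 and 2331 in low and 2971, 3036 and 1391 in high. Neg lay below sub and sub below low and high without overlap, while low and high overlapped. The means were 22.3 ± 38.7, 481 ± 103, 2262 ± 712 and 2466 ± 932 (SD, n = 3).

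Against neg, the log2 fold change of Erbb3 was 6.86 ± 1.55 in sub (limma adjusted p = 0.0310), 9.06 ± 1.55 in low (adjusted p = 0.00132) and 9.15 ± 1.55 in high (adjusted p = 0.00113). All 3 comparisons share the neg libraries. The ratios of means were 21.5, 101 and 110.4, and each turned on neg 1, the only neg library with Erbb3 reads and also the one with the highest biliary sum, 412 against 127 and 21.2. Without neg 1 the ratios were at least 131, at least 616.5 and at least 672, and without neg 2 or neg 3 they were 14.4, 67.5 and 73.6. The part of those biliary reads was not tested.

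The sub against neg call of Erbb3 was fragile. It was lost when any library but neg 1 was left out (11 of 12, limma adjusted p = 0.0784 to 0.130), and over the 23 alternatives the adjusted p ran from 0.000186 to 0.652. The low and high calls each held in 22 of 23, with adjusted p up to 0.122 and 0.0923 in the exception, the fit of only the 2 groups. Low stood 4.70-fold above sub, as a description.

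Egfr, the main receptor of EGF-type ligands, was present in all populations and passed no test. It occupies chr11:16752203-16918158, plus strand. Its values were 374.5, 701 and 787 in neg and 152, 0 and 958 in sub, and 684, 816 and 1299 in low and 388, 48.5 and 469.6 in high. Only low and high did not overlap: the low mean of 933 ± 324 was 3.09 times the high mean of 302 ± 223 (SD, n = 3). The log2 fold change of high against low was -2.11 (95% interval -6.17 to 1.95; limma adjusted p = 1), so a fall of this size was within the error.

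Erbb2, the shared partner, also passed no test. It occupies chr11:98412470-98437716, plus strand, and its exons overlap those of Mien1 on the opposite strand, whose mean over the 12 libraries was 2.65. Its values were 609, 100.3 and 0 in neg and 595, 90.4 and 492 in sub, and 614.5, 466.5 and 1710 in low and 542, 333.5 and 759 in high. The populations overlapped throughout, and low 3 stood above all other libraries. The log2 fold change against neg was 2.92 ± 1.89 in sub, 4.32 ± 1.89 in low and 3.71 ± 1.89 in high (limma adjusted p = 0.703, 0.257 and 0.344).

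Levels were also summed over the receptors per kilobase of annotated exons, as a description. The sum of the 4 receptors was 104 ± 49.9 in neg and 188 ± 71.2 in sub, and 796 ± 201 in low and 655 ± 85.8 in high (normalised counts per kb; SD, n = 3 each), with all low and high libraries above all neg and sub libraries. Without Erbb4 the sum was 69.5 to 161 in neg, 115 to 257 in sub, 414 to 830.3 in low and 418 to 632 in high, so the libraries were separated in the same way. Egfr made up 65.6 ± 40.8% of the receptor sum in neg, with 20.5% in the lowest library and 100% in the highest. Erbb3 made up 49.6 ± 30.7% in sub, 47.3 ± 10.4% in low and 61.1 ± 17.0% in high, and the shares of Egfr, Erbb2 and Erbb3 overlapped between sub and low. Erbb4 took 21.2 ± 7.01% in low and 17.9 ± 6.95% in high, beside 0.0836 ± 0.145% in sub. Since Erbb4 chose the set, the step of its share between sub and low is no finding.

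**Figure D2:**
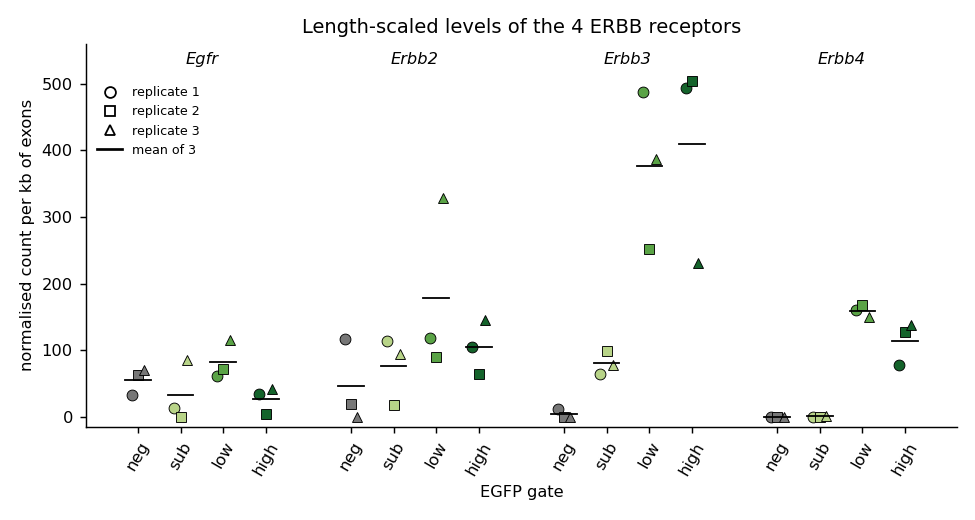
Normalised count per kb of annotated exons of Egfr, Erbb2, Erbb3 and Erbb4 in each library by EGFP gate; symbols give the replicate number and bars the mean of 3. Erbb3 is the highest receptor in low and high, with means of 376 and 409.9 per kb.

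Among the ligands, Hbegf was the highest in every population. Hbegf encodes the membrane-anchored HB-EGF, which binds EGFR and ERBB4 once it is shed. Its values were 951, 3089 and 1176 in neg and 3759, 3497 and 2699 in sub, and 8033, 13183 and 9398 in low and 9682, 9000 and 13844 in high. Every low and high library lay above every sub and neg library, low and high overlapped, and neg 2 lay within the range of sub.

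The mean of Hbegf was 1739 ± 1175 in neg and 3318 ± 552 in sub, and 10205 ± 2668 in low and 10842 ± 2622 in high (SD, n = 3). Against neg it rose by a log2 fold change of 2.72 ± 0.40 in low (limma adjusted p = 0.000231) and 2.82 ± 0.40 in high (adjusted p = 0.000159), or 5.87-fold and 6.24-fold in the means. Sub stood 1.91-fold above neg and did not pass the test (log2 fold change 1.12 ± 0.40, adjusted p = 0.290). Both calls held in 21 of 23 alternatives, with adjusted p up to 0.177 for low and 0.148 for high.

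The neg mean of Hbegf leaned on neg 2. Without neg 2 the ratios were 3.12 for sub, 9.60 for low and 10.2 for high, and sub against neg passed with limma adjusted p = 0.0227. High stood 3.27-fold above sub (log2 fold change 1.70 ± 0.40, limma adjusted p = 0.0451), a call lost when any library but neg 2 was left out, with adjusted p from 0.0718 to 0.252. High and low were close in mean, at 1.06-fold, with a 95% interval of the log2 fold change from -0.74 to 0.92 (limma adjusted p = 1). Low stood 3.08-fold above sub, as a description.

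Btc, encoding betacellulin, and Nrg1, encoding neuregulin 1, were scattered. Btc occupies chr5:91357261-91402994, minus strand. It was at 0 in all neg libraries, at 221, 0 and 0 in sub, 65.3, 383 and 228.5 in low and 45.9, 139.5 and 273 in high. Low and high did not overlap neg and stood at least 61.5-fold and at least 41.6-fold above it, and at least 40.04-fold without low 2 and at least 25.3-fold without high 3. Neither passed (log2 fold change 7.49 ± 2.57 and 6.93 ± 2.57, limma adjusted p = 0.118 and 0.153). Without sub 1, the only sub library with Btc reads, both passed, with adjusted p = 0.0303 and 0.0411. DESeq2 on 10 libraries also passed both, with adjusted p = 0.00112 and 0.00577. It passed sub against neg too (adjusted p = 0.0117), where sub 1 was the only library with reads, and Btc was the 1 member it called there, since Erbb3 had adjusted p = 0.0820 with DESeq2.

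Nrg1, the ligand of ERBB3 and ERBB4, had its highest mean in sub and passed no test. It occupies chr8:31814551-32884029, minus strand. Its values were 0 in all neg libraries, 47.9, 931 and 1912 in sub, 4.5, 478 and 0 in low and 141, 95.002 and 0 in high. Sub lay above neg without overlap, by at least 263-fold in the means and at least 133-fold without sub 3, while sub, low and high overlapped. The log2 fold change of sub against neg was 8.79 ± 2.85 and did not pass (limma adjusted p = 0.215), and that of high against sub was -4.21 ± 2.85 (adjusted p = 0.679). The sub mean of 964 ± 932 was 12.2 times the high mean, from 6.22 times without sub 3 to 20.3 times without high 1. As a description it was 5.99 times the low mean and 3.04 times without sub 3. Without low 2, the only low library well above 0, it was 391 times the limit of 3 reads. That is no lower bound, because low 1 lay above the limit.

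Marker sums are given beside Nrg1 over all gates. The mean endothelial sum was 131383 in neg and 37898 in sub, then 1505 in low and 678 in high, and the mean stellate sum was 24489, 28588, 1575 and 1311 in the same order. Of 5 neural or Schwann markers Sox10 was above 0 only in sub 1, at 393, and their sum was 127 to 834 in neg, 339 to 1843 in sub, 43.04 to 1733 in low and 558 to 1193 in high. The part of these cells in the Nrg1 values was not tested. By share of the ligand sum per kb, Hbegf made up 100% in neg and 85.9 ± 9.58% in sub, and 97.3 ± 1.85% in low and 98.2 ± 0.527% in high, and Nrg1 made up 12.2 ± 12.2% in sub (SD, n = 3).

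Errfi1, the feedback inhibitor, was higher in low and high than in neg. It occupies chr4:150853919-150868892, plus strand. Its values were 2574, 41.6 and 161 in neg and 4410.0, 2433 and 2348 in sub, and 9931, 8391 and 4666 in low and 11215, 11535 and 11372 in high. Neg 1 stood apart from the other neg libraries and within the range of sub. High lay above low and low above sub without overlap, and the high libraries were close together, with a mean of 11374 ± 160.1 beside 7663 ± 2707 in low, 3064 ± 1167 in sub and 926 ± 1429 in neg (SD, n = 3).

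Errfi1 was higher than in neg by a log2 fold change of 4.81 ± 0.91 in low (limma adjusted p = 0.00377) and 5.45 ± 0.91 in high (adjusted p = 0.00104), and the difference in sub, 3.49 ± 0.91, did not pass (adjusted p = 0.0764). The ratios of means to neg, 3.31 for sub, 8.28 for low and 12.3 for high, turned on neg 1 and became 30.2, 75.5 and 112 without it. Sub against neg passed without neg 1 (limma adjusted p = 0.000947), with a pseudocount of 5 (limma adjusted p = 0.0361) and with edgeR on 10 libraries (adjusted p = 0.0181). It passed in only 4 of the 23 alternatives, and DESeq2 gave adjusted p = 0.499. The low call was lost without neg 2, neg 3, sub 3, high 1, high 2 or any low library (adjusted p = 0.0501 to 0.107), and the high call without neg 3 or any high library (adjusted p = 0.0506 to 0.0633). Over the 23 alternatives the low call held in 11 and the high call in 16. Adjusted p for low and high was 0.0590 and 0.0441 with DESeq2, and 0.106 and 0.108 with limma on 10 libraries. Without the variance trend limma gave 0.0996 and 0.0551.

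The step of Errfi1 from low to high was 1.48-fold in the means. Its log2 fold change was 0.64 (95% interval -1.27 to 2.55; limma adjusted p = 1), so it was within the error although the libraries did not overlap. High stood 3.71-fold above sub and did not pass (1.96 ± 0.91, adjusted p = 0.470). Low stood 2.50-fold above sub, as a description.

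By comparison, the members' tests gave 1 of 7 higher and 0 lower in sub against neg, beside 1.04% of all tested genes called higher. In low against neg 3 of 7 were higher, beside 2.55% of all genes, and in high against neg 4 of 8 were higher, beside 2.44%. In high against sub 1 of 7 was higher, beside 0.118%. High against low called 0 of 7 members with limma, 0 of them at an unadjusted p under 0.05, and 0 with edgeR or DESeq2. Over all genes limma called 0% in that comparison, with 684 genes at an unadjusted p under 0.05, and edgeR called 74 genes and DESeq2 678. Erbb4 enters these counts only in high against neg, and the members were chosen with results of these data known.

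Separation of the libraries gave a like picture without a model. In sub against neg 2 of 7 members lay higher without overlap (Erbb3 and Nrg1), beside 4.69% of all tested genes. The counts were 4 of 7 in low against neg, beside 8.38%, 5 of 8 in high against neg, beside 10.2%, and 3 of 7 in high against sub, beside 7.2%. In high against low 1 of 7 lay higher (Errfi1) and 1 lower (Egfr), beside 4.06% and 3.28% of all tested genes. In low against sub, the choosing comparison, 4 of 8 lay higher (Erbb3, Erbb4, Hbegf and Errfi1), beside 5.75%, from which nothing is read.

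**Figure D3:**
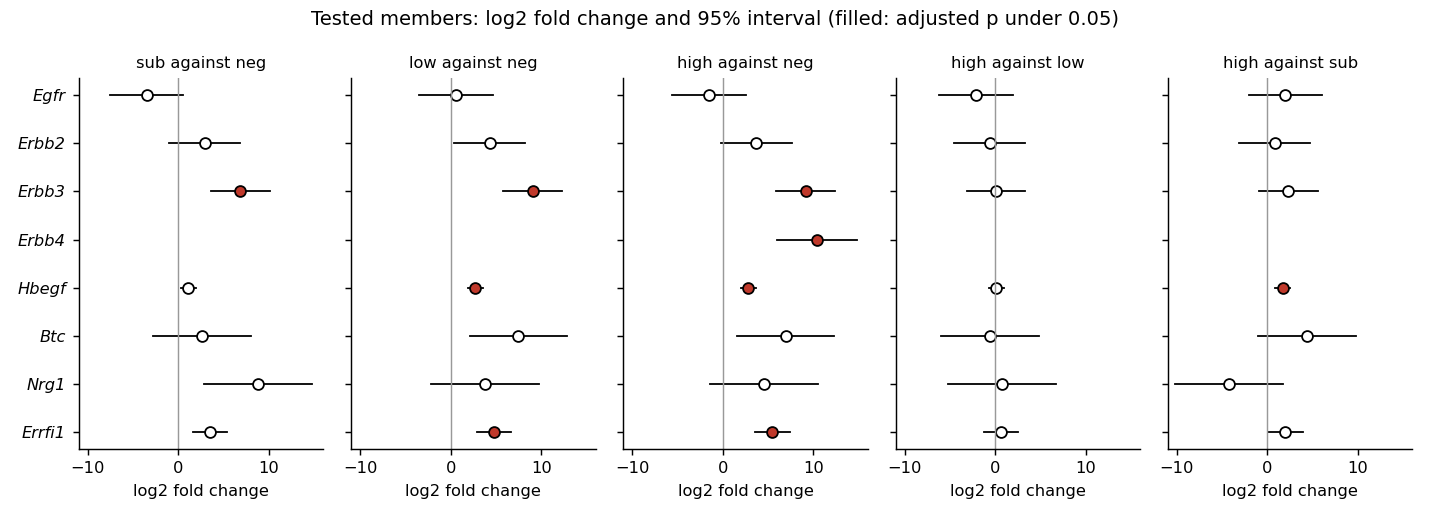
Log2 fold change (log2(normalised count + 1) scale) with its 95% interval for each tested member in 5 comparisons; filled symbols passed limma adjusted p under 0.05. Erbb4 is shown only in high against neg, and no interval in high against low is filled.

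Levels could be ordered between members only per kb of exons. In low the mean order was Errfi1 at 2139, Hbegf at 2111, Erbb3 at 376, Erbb2 at 179, Erbb4 at 159, Egfr at 82.4, Btc at 49.9, Nrg1 at 15.5 and Areg at 0 normalised counts per kb. Among neighbours in that order only Hbegf and Erbb3, and Erbb4 and Egfr, did not overlap. In high the order was Errfi1 at 3175, Hbegf at 2243, Erbb3 at 409.9, Erbb4 at 114, Erbb2 at 105, Btc at 33.8, Egfr at 26.7 and Nrg1 at 7.60, where the neighbours Errfi1 and Hbegf, Hbegf and Erbb3, Erbb3 and Erbb4, and Erbb2 and Btc did not overlap.

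In sub the order was Errfi1 at 855, Hbegf at 686, Nrg1 at 93.1, Erbb3 at 80.02, Erbb2 at 75.3, Egfr at 32.6, Btc at 16.3 and Erbb4 at 0.215, and only Hbegf and Nrg1 did not overlap as neighbours. In neg Hbegf, at 359.7, and Errfi1, at 258, led over Egfr at 54.8, Erbb2 at 45.4 and Erbb3 at 3.71, and all neighbours overlapped. Errfi1 and Hbegf thus led in sub, low and high. In neg the place of Errfi1 rests on neg 1, at 719 per kb: in neg 2 and neg 3 it stood at 11.6 and 45.03 per kb, below Egfr at 61.9 and 69.5. The order of the receptors differed between libraries of neg and of sub, and Erbb2 was the highest receptor in neg 1, sub 1 and sub 3.

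The low against sub step of Erbb4 can be set beside the duct markers of the same libraries. For the 9 biliary markers above 0, the ratio of low to sub ranged from 1.27 to 3.65 with a median of 2.92. The sub means of some markers leaned on single libraries. Krt19 and Epcam were highest in sub 1 and Cldn4 in sub 2, and Cldn4 and Cftr were at 0 in sub 3. The marker range was not recomputed with a library left out. Hbegf at 3.08, Egfr at 2.52, Erbb2 at 2.37, Btc at 3.06 and Errfi1 at 2.50 lay within the range of the markers. Nrg1 at 0.167 lay below it, and Erbb3 at 4.70 lay above it on these means. Without sub 1 the ratio of Erbb3 was 4.27. Krt19 was at 710 in sub 2 and 846 in sub 3, beside a low mean of 5795.5, which is a larger ratio. Without sub 1 Erbb3 thus did not lie above every marker. For the other libraries this was not compared. Erbb4 lay far above the marker range, at 573 against the limit of 3 reads, which is no lower bound, and at 493 without sub 1 or sub 2. For Egfr and Btc a single library decides the place: without sub 3 the ratio of Egfr was 12.3, and without sub 1 that of Btc was at least 65.7. Erbb2 stood at 1.38 without low 3. These ratios involve the choosing libraries and describe them only.

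The genes whose profile was most like that of Erbb4 were ranked by the root mean square difference of log2(normalised count + 1) over the 12 libraries, each gene first centred on its own mean, among the 9613 other genes with a mean of at least 100. The 6 nearest were Slc16a12 at 1.05, Foxa1 at 1.27, Cfi at 1.35, Pgpep1 at 1.37, Prkaa2 at 1.42 and Tarbp1 at 1.55, where the median gene stood at 5.55. All 6 were also the nearest with a pseudocount of 5. Slc16a12, a membrane transporter, was at 0 in neg and sub, at 551 ± 63.6 in low and at 439 ± 31.6 in high (SD, n = 3). Foxa1, a transcription factor of the liver and gut endoderm, was at 0 in neg and 38.95 ± 66.5 in sub, and 1122 ± 349 in low and 1153 ± 683 in high. Cfi, complement factor I, was at 0 in neg and sub, 462 ± 269 in low and 514 ± 336 in high. The likeness is a description of these 12 libraries, which also set the choice of Erbb4.

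The rest of the pathway was read from a list of 92 genes (other ligands, sheddases, adaptors, negative regulators, the MAPK cascade, the PI3K-AKT arm and response genes), of which 85 passed the filter. In sub against neg 3 were called higher, beside 1.04% of all genes, and 0 lower, with a median log2 fold change of 0.28 beside 0 over all genes. In low against neg 9 were higher and 3 lower (median 0.01, beside 0 over all genes), where 2.55% of all genes were called higher and 2.15% lower. In high against neg 8 were higher and 2 lower (median 0.70, beside 0.13), where 2.44% of all genes were called higher and 2.25% lower. In high against sub 2 were higher and 1 lower (median 0.57, beside 0.20), where 0.118% of all genes were called higher and 0.868% lower. In high against low limma called 0, with 4 at an unadjusted p under 0.05, and edgeR and DESeq2 called 0.

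Response genes made up much of the calls. Of 15 such genes 3 were higher in sub, 6 in low and 6 in high, each against neg, beside the 1.04%, 2.55% and 2.44% of all genes called higher. Fosb, a subunit of the AP-1 transcription factor, rose from 14220 ± 2798 in neg to 33506 ± 5571 in sub (log2 fold change 1.24 ± 0.13, limma adjusted p = 8.33e-06). Fos and Jun, further AP-1 subunits, rose in sub by 1.15 ± 0.17 and 0.79 ± 0.11 (adjusted p = 0.000580 and 0.000240), and the Fos call was lost without sub 1 or sub 3 (adjusted p = 0.0749 at most). Fosl1, another subunit, stood at 228 ± 393 in neg, 3636 ± 1594 in low and 2007 ± 112 in high (log2 fold changes 8.35 and 7.58, adjusted p = 0.00786 and 0.0152). Its calls were lost in 10 and 11 of the 12 fits that left out a library, with adjusted p up to 0.170. Ier2, an immediate early gene, rose from 706 ± 131 in neg to 4404 ± 773 in high (2.64 ± 0.51, adjusted p = 0.00390).

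Among adaptors and regulators, Grb7, which docks on activated ERBB2 and ERBB3, was at 0 in neg, 515 ± 322 in low and 772 ± 494 in high. Its log2 fold changes were 8.80 ± 2.33 and 9.38 ± 2.33 (limma adjusted p = 0.0339 and 0.0234). The low call was lost without any neg library, any low library or high 2 (adjusted p up to 0.0926), and the high call without any high library (adjusted p up to 0.0816). Ptprj, a receptor-type phosphatase, stood at 143 ± 130 in neg, 2121 ± 289 in low and 2635 ± 537 in high (5.64 ± 1.42 and 5.95 ± 1.42, adjusted p = 0.0259 and 0.0181). Its calls were lost in 10 and 9 of the 12 fits that left out a library (adjusted p up to 0.167 and 0.154).

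Fewer pathway genes were called lower. Plcg1, a phospholipase recruited by ERBB receptors, fell from 4276 ± 365 in neg to 696 ± 748 in low (log2 fold change -3.19 ± 0.75, limma adjusted p = 0.0164), a call lost without any neg library, low 1 or low 2 (adjusted p up to 0.0758). Timp3, an inhibitor of the sheddases that release HB-EGF, was at 13195 ± 1982 in neg and 20103 ± 5778 in sub, and at 3212 ± 2078 in low and 2807 ± 822 in high. It was lower in high than in sub (-2.84 ± 0.37, adjusted p = 0.000527), and lower than in neg in low and in high (-2.22 ± 0.37 and -2.26 ± 0.37, adjusted p = 0.000979 and 0.000742). The endothelial and stellate sums were lower in low and high than in neg and sub, and their part in these differences was not tested. Fosb and Egr1, both response genes, were higher in high than in sub by 0.57 ± 0.13 and 0.52 ± 0.11 (adjusted p = 0.0387 and 0.0249), and these calls were lost in 12 and 11 of the 12 fits that left out a library (adjusted p up to 0.335 and 0.247).

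Of the 7 other ERBB ligands in that list, Egf, Epgn, Nrg2, Nrg3 and Nrg4 were at 0 in all 12 libraries, and Ereg was above 0 only in neg 1, at 47.7. Tgfa, an EGFR ligand, was above 0 in 9 of 12 libraries, with means of 237 ± 346.4 in neg and 276 ± 287 in sub, and 497 ± 480 in low and 355 ± 159 in high (SD, n = 3), and passed no test. A count of 0 allows up to 3 reads per library, so these ligands were not detected at this depth rather than shown to be absent.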

How the data were processed

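Total RNA of 12000 sorted cells per library was treated with DNase for 30 min and made into libraries with a kit for total RNA of small inputs (SMARTer Stranded, Pico v2), per the labels' protocols. The submitters' processing notes name Salmon, DESeq2 1.26.0 and the build mm10, without saying which step each served. The authors deposited 1 table of normalised counts per gene and library, a signal in which 100% of the values were whole multiples (tolerance 0.001) of 1 step per library. Each signal was therefore read as reads divided by 1 factor, and whole reads were recovered. In 2 libraries, sub 3 and high 2, the step was 0.997 and 1.01, too close to 1 to tell, so the count tests ran without them.

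Samples were grouped by their titles and table columns were matched by the descriptions. Genes with a mean of at least 10 (16128, holding 99.9% of the summed values) entered as log2(normalised count + 1) and were fitted with limma 3.58.1 in R 4.3.3 (12 libraries, group as the only term, variance trend, two-sided, Benjamini-Hochberg over all 16128 genes, threshold 0.05). The added 1 shrinks fold changes of genes that are low in every library. Where a single library is at 0, the fold change on that scale can instead exceed the ratio of means or differ from it in direction. For Egfr, the log2 fold change was -3.49 in sub against neg, where the ratio of means was 0.596. In high against sub it was 1.98, where the ratio was 0.816. Ratios of means against a group at 0 are lower bounds from 3 reads per library, a limit that covers counting error only, since no molecular identifiers are mentioned. The fit was also run on simulated counts drawn around the mean of each gene. These were not set to hold the single zeros of the real libraries, so the run cannot show how the fit handles them. Levels per kb use exon lengths of GENCODE M21.

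The members, the pathway list and the marker lists were chosen with earlier results of these data known, and so give no independent support. Named pathway genes were up to 5 per comparison with the largest fold change among those called, and the 6 genes most like Erbb4 were named. As alternatives, pseudocounts of 0.5 or 5 were tried, then dropping the filter or raising it to 100, equal totals, a block for the replicate number, no trend in the variance, a fit of only the 2 groups, each library left out in turn, and edgeR 4.0.16 (quasi-likelihood) and DESeq2 1.42.0 on the reads of 10 libraries. A limma fit on those 10 libraries, and the same alternatives for the pathway genes, were chosen after seeing the data. The sequence and position of Hbegf, and a few genes of the pathway and marker lists, are not reported here.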

Additional observations from a re-analysis of the deposited data

How the results depend on the processing

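Of 828 member fold changes over 36 results and 23 alternatives, 742 kept their direction and their side of the threshold, 59 lost a call, 10 gained one and 17 changed sign. The count of members called in sub against neg was 1. It became 2 with a pseudocount of 5, with the replicate block and with edgeR, 0 with no filter, no variance trend, only the 2 groups or limma on 10 libraries, and 0 to 2 when a library was left out. In low against neg, 3 became 1 without the variance trend, 0 with only the 2 groups and 2 with limma on 10 libraries. That count was 2 to 4 when a library was left out. In high against neg, 4 became 2 without the variance trend and 1 with only the 2 groups. That count was 3 with limma on 10 libraries, 5 with DESeq2 and 3 to 5 when a library was left out. In high against sub, 1 became 0 with a pseudocount of 0.5, no filter, no variance trend, only the 2 groups, edgeR, DESeq2 and limma on 10 libraries, and 0 to 1 when a library was left out. The fit of only the 2 groups has 6 libraries, and for the rest the cause was not tested.

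No fold change that reversed had passed a test. In high against low, that of Erbb3 was -0.0552 with edgeR, -0.0561 with DESeq2, -0.10 with limma on 10 libraries and -0.17 to 0.46 with a library left out. There Nrg1 gave -1.09 with edgeR, -1.19 with DESeq2, -0.21 with limma on 10 libraries and -1.10 to 3.35 with a library left out, Hbegf -0.10 to 0.29 and Btc -1.29 to 0.12. In high against sub, Egfr ran from -0.88 to 4.08 and Erbb2 from -0.0685 to 1.28 when a library was left out.

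Each description carries a tag that recurs in all 4 groups, as the replicate numbers do, and the labels do not say what it marks. The deviations of same-numbered libraries correlated weakly: over 18 pairs r ran from -0.0161 to 0.0266 (median 0.0114, beside -0.00364 for other pairs), with 0 above 0.1. Still, 10 of 12 libraries correlated best with their own number, a hint from the data and not from the design. With the replicate block, Errfi1 passed in sub against neg (limma adjusted p = 0.0276). With the replicate block 180, 720, 715, 1 and 130 genes were called over all genes in sub, low and high against neg, high against low and high against sub. Over all alternatives these counts ran from 0 to 1645, 203 to 1875, 341 to 1845, 0 to 678 and 8 to 1506, the highest with DESeq2. Pathway genes called ran from 0 to 8 in sub against neg, 2 to 13 in low against neg, 2 to 13 in high against neg, 0 in high against low and 0 to 5 in high against sub. Without length, Erbb4 ranked 4, Egfr 5 and Erbb2 6 among the members in low. Zeros in single libraries limit what 3 libraries per group can show for Egfr, Erbb2, Btc and Nrg1.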

Other observations

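The annotation places 8 further genes inside Erbb4 on its own strand, without exon overlap, and 3 of them gave reads. Gm15670, a processed pseudogene, was above 0 in 3 of 12 libraries, the high ones, at 66.6, 18.2 and 40.02 normalised counts. Gm37769 was at 17.1 in low 1, 170.5 in high 1 and 544 in high 3, and Gm37061 at 63.1 in low 1, and both were at 0 in the other libraries. None of these genes gave reads in neg or sub, where Erbb4 itself was at or near 0.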
